A study of Mus musculus with 20 samples.

Results

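The alarmins of skin are proteins that damaged or stressed epithelial cells release or make to call in inflammation, and 6 of their genes are described here in accessible chromatin. IL-33 (Il33) and IL-1α (Il1a) are interleukin-1 family cytokines that keratinocytes store and release on injury. IL-1β (Il1b) is made as a precursor that caspase-1 cuts, and it acts on the same receptor as IL-1α. The IL-1 receptor antagonist (Il1rn) occupies that receptor without signalling. S100A8 and S100A9 (S100a8, S100a9) are calcium-binding proteins that pair as calprotectin, abundant in neutrophils and made by keratinocytes in wounded or inflamed epidermis.

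The assay was ATAC-seq: Tn5 transposase inserts adapters into DNA that is not tightly packed. The cells came from tail epidermis of Lrig1CreER/Rosa-TdTomato mice, in which activated Cre turns on a red fluorescent protein in cells that express Lrig1, a gene of the upper hair follicle, and in the descendants of these cells. Per the labels the cells were Lrig1 GL and sorted for Sca1, a surface protein, and all 10 groups shared the genotype and the sort. Each group had 2 libraries. The uncultured groups were homeostasis, the first wound at 1 week and at 8 weeks, the second wound at 1 week, vehicle treatment, PRT4165 (an inhibitor of the histone H2A ubiquitin ligase of Polycomb repressive complex PRC1), UVB, and wounding with UVB. In the remaining pair of groups cells were put in culture, taken 8 weeks after a first wound from a control (non-memory) region or from the distal region that the labels call memory. The sources used here give no ages or doses and do not say whether replicates were separate animals. The authors deposited 1 peak list per group, which pools the libraries, so replicate spread is unknown and no difference could be tested.

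A peak belonged to a gene when its summit lay in the gene's mm10 span or within 20 kb of its ends. Of the 924275 peaks in the 10 lists, 304 did so, and none lay in the windows of more than one of the genes. Overlapping peaks of a list were merged into regions, and regions that overlapped between lists were joined into 101406 regions of the series, of which 36 were at the 6 genes. Il33 (gene ID 77125, chr19:29925113-29960718, + strand) had 14 of them, Il1a (gene ID 16175, chr2:129299609-129310186, − strand) 7, Il1b (gene ID 16176, chr2:129364569-129371164, − strand) 1, Il1rn (gene ID 16181, chr2:24336860-24351491, + strand) 6, S100a8 (gene ID 20201, chr3:90669071-90670034, + strand) 5 and S100a9 (gene ID 20202, chr3:90692630-90695721, − strand) 3. The nearest summit inside the 20 kb limit lay 16588 bp from the end of Il1rn, in the list of wounding with UVB, with a signal value of 6.41. The nearest outside lay 20634 bp from the end of Il1a, at chr2:129330561-129331179 in the PRT4165 list, with a signal value of 6.56. The signal value is the authors' enrichment of a peak. It is given with its percentile among the regions of the same list and does not measure a change between lists.

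The promoters tell the members apart, so the bases before 5 of the RefSeq start sites are shown first, 250 bases each, read 5′ to 3′ on the gene's strand from RefSeq (build GRCm38.p6, to which mm10 corresponds). The S100a9 stretch (chr3:90695722-90695971, −) was accessible in 3 lists and that of its neighbour S100a8 (chr3:90668821-90669070, +) in 9. Both Il33 stretches (chr19:29924863-29925112 and chr19:29945540-29945789, +) were accessible in the 8 lists of cells that were not cultured, and the Il1b stretch (chr2:129371140-129371389, −) in none. A promoter counts as accessible where its 300 bases, 250 before to 50 after the start, overlap a region of the list. Capitals mark matches to the motifs named after the sequences.
S100a9: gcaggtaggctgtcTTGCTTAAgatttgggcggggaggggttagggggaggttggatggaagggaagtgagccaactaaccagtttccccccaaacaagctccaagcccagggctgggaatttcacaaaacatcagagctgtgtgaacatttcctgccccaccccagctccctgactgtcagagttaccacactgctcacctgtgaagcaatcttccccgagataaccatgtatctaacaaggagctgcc
S100a8: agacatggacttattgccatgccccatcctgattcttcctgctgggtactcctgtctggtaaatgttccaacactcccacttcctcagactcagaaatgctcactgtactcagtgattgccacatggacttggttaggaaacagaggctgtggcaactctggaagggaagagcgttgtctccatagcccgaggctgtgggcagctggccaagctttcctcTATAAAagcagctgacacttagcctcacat
Il33 start 1: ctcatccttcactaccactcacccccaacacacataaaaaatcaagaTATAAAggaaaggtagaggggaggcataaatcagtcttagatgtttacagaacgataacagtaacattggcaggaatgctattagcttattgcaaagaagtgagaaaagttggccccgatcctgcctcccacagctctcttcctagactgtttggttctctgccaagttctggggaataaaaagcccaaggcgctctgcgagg
Il33 start 2: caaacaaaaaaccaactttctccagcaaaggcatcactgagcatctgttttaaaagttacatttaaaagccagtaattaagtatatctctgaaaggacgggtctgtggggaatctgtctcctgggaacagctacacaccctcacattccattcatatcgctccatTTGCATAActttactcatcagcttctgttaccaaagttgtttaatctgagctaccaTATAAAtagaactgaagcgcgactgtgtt
Il1b: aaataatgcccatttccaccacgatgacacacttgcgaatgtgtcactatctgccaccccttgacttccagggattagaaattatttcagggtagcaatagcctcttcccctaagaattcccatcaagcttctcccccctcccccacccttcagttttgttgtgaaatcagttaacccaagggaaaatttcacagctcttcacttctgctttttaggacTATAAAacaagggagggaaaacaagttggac

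The motifs searched on both strands of these 250 bases were TGANTCA of the AP-1 factors, TTGCNNAA of the C/EBP factors, the TATA box TATAAA and the NF-kB consensus. Of 32851 RefSeq promoters of the same length, 6.75% held the AP-1 letters, 9.56% the C/EBP letters, 12.4% the TATA box and 3.9% the NF-kB consensus. A TATA box ended 25 bases before the S100a8 start, 26 before Il1b, 27 before Il1a and 24 before the second Il33 start. At the first Il33 start the match lay 203 to 198 bases upstream, and the S100a9 and Il1rn stretches had none. The C/EBP letters stood 236 to 229 bases before S100a9 and 85 to 78 bases before the second Il33 start. The AP-1 letters stood 12 to 6 bases before Il1a and 141 to 135 bases before the first of the 3 RefSeq starts of Il1rn. No NF-kB consensus was found in the stretches of the 6 genes, and no match overlapped another.

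The lists held between 34644 regions (8 weeks after the first wound) and 73340 regions (UVB), and the sources used here give no read depth. A region absent from a list did not pass the authors' threshold there, which is not a measurement of closed chromatin. For the main patterns below, the share of all regions or promoters in exactly the same lists is given. The sorted cells' own genes Lrig1 and Ly6a had a region within 1 kb of an end in all 10 lists, and 3 to 5 of 5 keratinocyte genes did. Of 7 neutrophil and macrophage genes only Spi1 had one in the 8 lists of uncultured cells, and Csf1r was added in both cultured lists. None of 4 T cell genes had a region in any list, and of 4 Langerhans cell genes 1 to 3 had one, Cd207 never. Fibroblast genes had a region for 1 to 3 of 4, endothelial genes for 0 to 1 of 3 and melanocyte genes for 1 to 2 of 3. In homeostasis the signal values at the keratinocyte genes with a region ran from 4.63 to 5.62. Lrig1 and Ly6a had 8.39 to 10.9, the melanocyte genes Dct and Mitf 10.7 to 21.7, Spi1 15.1, Col1a1 10.6 and Epcam 8.9. Regions at the Y-linked genes Ddx3y, Uty and Eif2s3y were in 5 lists (1 week after the first and after the second wound, wounding with UVB, and both cultured lists) and in none of the other 5. Of the 8 comparisons below, those of 1 week after the first and after the second wound with homeostasis and that of wounding and UVB with UVB set a list with these regions against one without, and the part of this in the results was not tested.

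**Figure D1:**
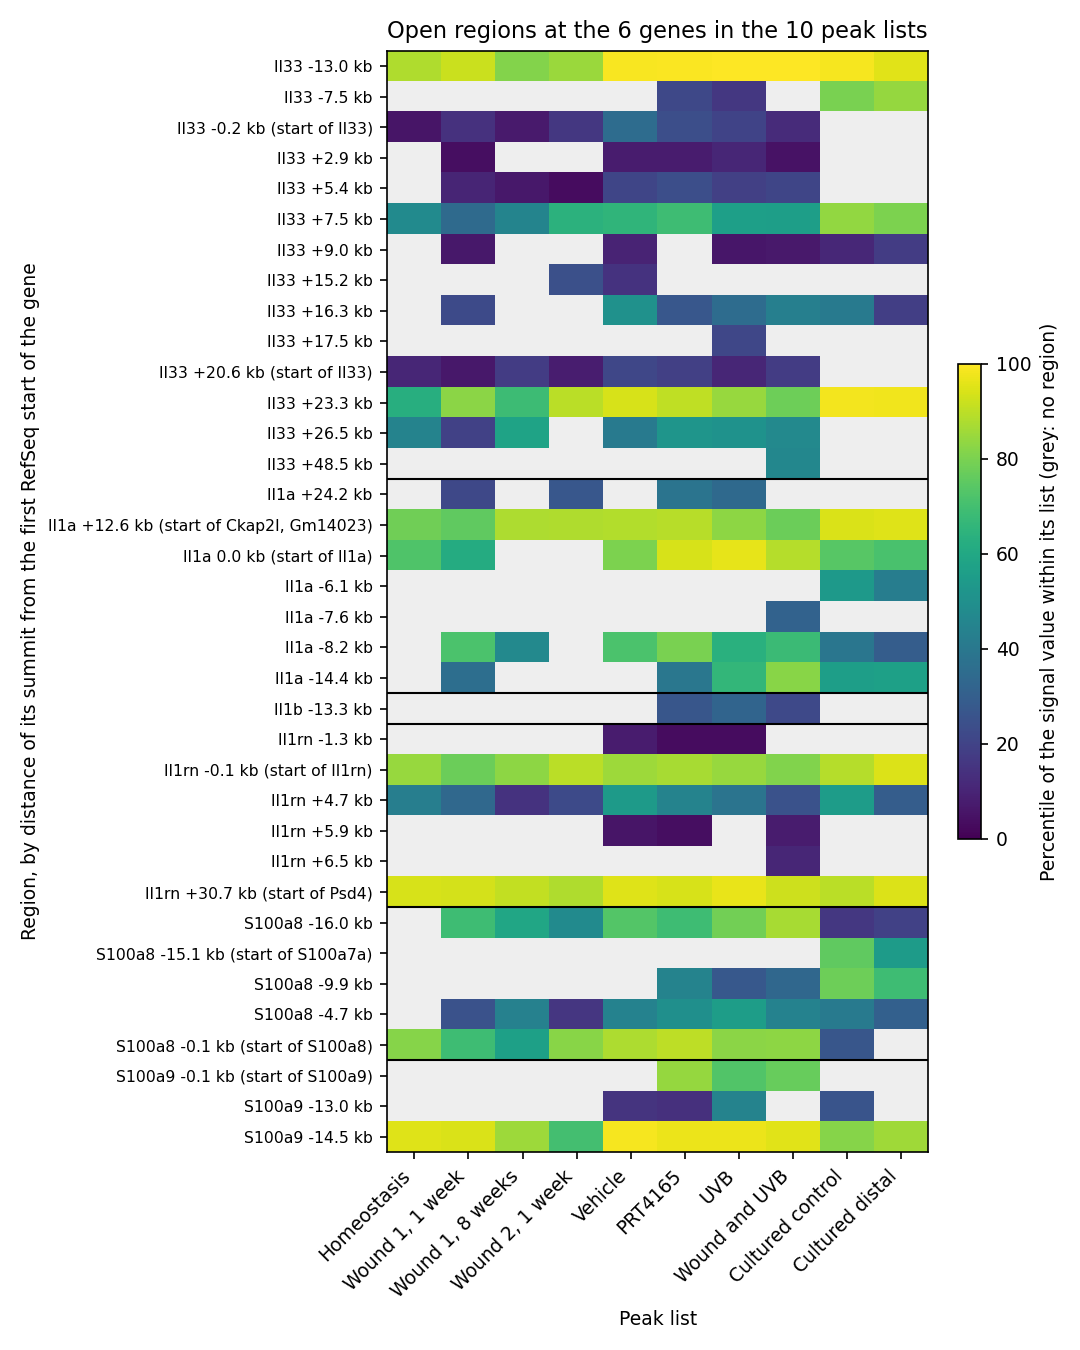
Each of the 36 regions at the 6 genes (rows, by distance of the summit from the gene's first RefSeq start) in the 10 peak lists (columns). Colour gives the percentile of the region's signal value in its own list and grey marks lists without the region. The rows at the start of Il1rn are filled in every column, those at the start of S100a9 in 3, and both starts of Il33 are empty in the cultured lists.

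Of the 36 regions, 8 were in all 10 lists, where 18.8% of the regions of the series were. These 8 lay 13 kb upstream of Il33 and 7.5 and 23.3 kb into the gene, at the start of Il1rn and 4.7 kb into it, 14.5 kb upstream of S100a9, and at the starts of the neighbouring genes Ckap2l and Psd4, in the windows of Il1a and Il1rn. A single list held 4 of the 36 regions (11.1%, where 17.1% of the regions of the series were), 3 of them in that of wounding with UVB and 1 in that of UVB. The total at the 6 genes ran from 13 regions in homeostasis to 29 in each of the lists with UVB. In that of wounding with UVB the region at the Psd4 start was in separate parts, each counted. Relative to list length the counts ran from 3.43 per 10000 regions in vehicle to 4.62 at 8 weeks after the first wound, with homeostasis at 3.69.

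**Figure D2:**
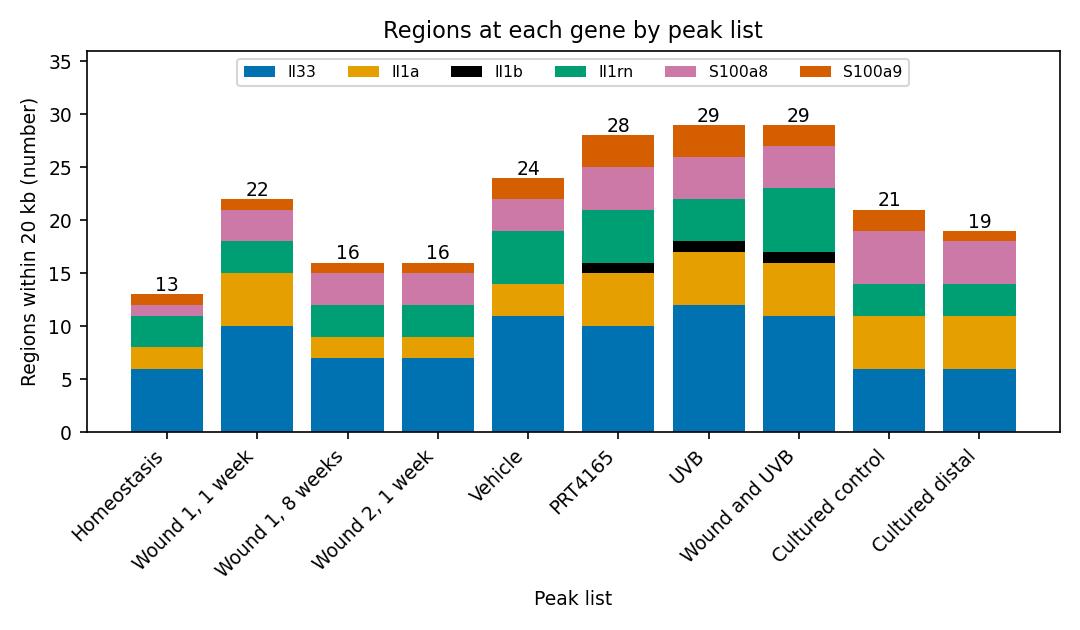
Number of regions within 20 kb of each of the 6 genes (stacked bars, y axis) in each of the 10 peak lists (x axis), with the total above each bar. Totals run from 13 in homeostasis to 29 in the lists with UVB, Il33 gives the most regions in every list, and Il1b gives 1 region in 3 lists.

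Il33 was the member with the most regions in every list. It had 6 in homeostasis, 10 at 1 week and 7 at 8 weeks after the first wound, 7 at 1 week after the second wound, 11 with vehicle, 10 with PRT4165, 12 with UVB, 11 with wounding and UVB, and 6 in each cultured list. Between 82.5% (cultured control) and 96.4% (1 week after the first wound) of 21887 protein-coding genes had fewer in the same list, the median gene having 2 or 3. Il33 also has the longest span of the 6, which widens its window.

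The highest signal value at any of the 6 genes was that of a region 13 kb upstream of Il33 (chr19:29911844-29912488), within the span of Gm41832. It was 14.4 in homeostasis, 15.9, 13.4 and 14.4 in the 3 wound lists in the order above, 25.5 with vehicle, 26.9 with PRT4165, 29.4 with UVB, 31.0 with wounding and UVB, 23.2 in cultured control and 19.7 in cultured distal cells. It thus ranked between percentile 81.6 and 91.9 in the homeostasis and wound lists and between 95.6 and 99.7 in the other 6, with no overlap of the ranks. The intragenic region 23.3 kb into the gene (chr19:29948169-29948841) had its lowest percentile in homeostasis, 62.7, and its highest in the cultured lists, 98.4 in control and 97.9 in distal. Percentiles depend on list length, from 34644 to 73340 regions here, and were not adjusted for it.

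Both Il33 promoters were weak where they were present. The first (chr19:29924593-29925350, summit 181 bp before the start) had signal values of 5.03 in homeostasis, 5.76, 5.53 and 6.48 in the wound lists in the order above, 7.48 with vehicle, 6.8 with PRT4165, 6.33 with UVB and 5.94 with wounding and UVB, at percentiles 5.55 to 35.3. The second, 20.6 kb further in (chr19:29945568-29945869, summit 90 bp before its start), had values from 4.73 to 6.85, at percentiles 6.27 to 21.2. Neither was in a cultured list. Both shared the pattern of all 8 uncultured lists and no cultured list with 5.06% of the regions of the series and, counted at promoters, with 176 of 32851 (0.536%). Among the 34644 strongest regions of each list, both promoters were kept in 2 of the 8 lists only, homeostasis and 8 weeks after the first wound, which are the shortest.

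A region 7.5 kb upstream of Il33 (chr19:29917448-29917824) had the opposite emphasis. It was in the cultured control list with a signal value of 14 (percentile 79.8) and in cultured distal with 15.2 (percentile 84.3), and more weakly with PRT4165 (6.54, percentile 21.6) and UVB (5.9, percentile 16.1). Its 2 cultured values were above those of both uncultured lists that held it, and 0.227% of the regions of the series were in the same 4 lists. An intragenic region 5.4 kb from the start (chr19:29930311-29930682) was in every uncultured list but homeostasis, at percentiles from 3.34 (1 week after the second wound) to 24 (PRT4165), a pattern of 1.46% of the regions of the series. Another intragenic region, 26.5 kb from the start (chr19:29951440-29951893), was in every uncultured list but that after the second wound, at percentiles 19.3 to 58.1 (0.394% of the regions of the series). With the same limit it was kept in 3 lists, those of homeostasis, 8 weeks after the first wound and PRT4165.

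Il1a had 2 regions in homeostasis, 5 and 2 at 1 and 8 weeks after the first wound, 2 after the second wound, 3 with vehicle and 5 in each of the other 5 lists. Its promoter (chr2:129309792-129310310, summit 4 bp before the RefSeq start and within the gene's span) was in 8 lists and missing from those of 8 weeks after the first wound and 1 week after the second. In homeostasis it had a signal value of 11.5, at 1 week after the first wound 10.2, with vehicle 14.1, with PRT4165 19.5, with UVB 22.1, with wounding and UVB 19.6, in cultured control 12.8 and in cultured distal 12.5. In their own lists the PRT4165, UVB and wounding with UVB values stood at percentiles 93.8, 96.4 and 88.9, above the others, which ran from 61.5 (1 week after the first wound) to 80.1 (vehicle). The same 8 lists held 163 of 32851 promoters (0.496%), and the Il1a promoter was among the 34644 strongest regions in all 8.

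Upstream of Il1a lay regions that were in neither homeostasis nor the list after the second wound. The one 8.2 kb upstream (chr2:129318011-129318595) was in the other 8 lists, at percentiles from 29.5 (cultured distal) to 80 (PRT4165), as were 0.385% of the regions of the series. That 14.4 kb upstream (chr2:129324163-129324775) was at 1 week after the first wound (signal value 7.73), with PRT4165 (8.33), with UVB (12.2), with wounding and UVB (17.3), in cultured control (9.82) and in cultured distal (10.4). It ranked highest with wounding and UVB, at percentile 82.4, and lowest at 1 week after the first wound, at 36.1, and 0.071% of the regions of the series were in the same 6 lists. A region 6.1 kb upstream (chr2:129315837-129316409) was in both cultured lists only, at percentiles 53.7 in control and 42.2 in distal, a pattern shared with 7.75% of the regions of the series and with 1 other member region, at S100a7a. A region in the span of Ckap2l, 24.2 kb downstream of the Il1a start (chr2:129285410-129286079), was in the lists of 1 week after either wound, PRT4165 and UVB, at percentiles 21.5 to 38.6 (0.0276% of the regions of the series).

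Il1b stood at the other end of the members. No list had a region at its promoter, as for 17562 of 32851 promoters (53.5%), and its 1 region lay 13.3 kb upstream (chr2:129384015-129384911). That region was in the PRT4165, UVB and wounding with UVB lists, with signal values of 7.07, 7.69 and 7.4 at percentiles 26.9, 32.3 and 22.1. The authors' −log10 p of these peaks was 36, 41.5 and 28.9, where each list starts at 2. The region was not among the 34644 strongest of any list. In each list 20.7 to 29.2% of all protein-coding genes had no region within 20 kb.

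**Figure D3:**
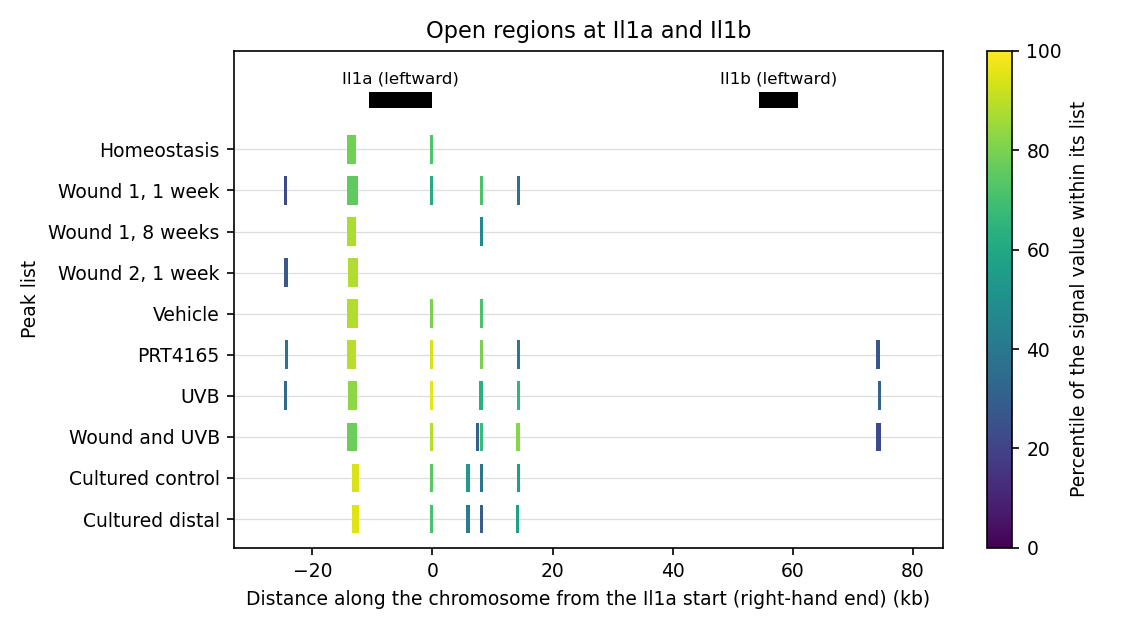
Accessible regions at Il1a and Il1b in the 10 peak lists (rows), by distance in kb along the chromosome from the Il1a start. Black boxes are the gene spans, each coloured bar is a region, with short ones widened to stay visible, and colour gives the percentile of its signal value in its list. Bars at 0 kb are missing in the lists of 8 weeks after the first wound and 1 week after the second, and the bar upstream of Il1b appears in 3 lists.

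Il1rn, the antagonist, had 3 regions in homeostasis and in each wound and cultured list, 5 with vehicle and with PRT4165, 4 with UVB and 6 with wounding and UVB. Of these last 6, 2 were separate parts of 1 region of the series, that at the Psd4 start, and the region 1.3 kb upstream of Il1rn was absent. Its main promoter (chr2:24336418-24337154, summit 111 bp before the first start) was in all 10 lists, with signal values of 13.6 in homeostasis, 12.4, 13.7 and 15.8 in the wound lists in the order above, 15.5 with vehicle, 16.5 with PRT4165, 16.4 with UVB, 17.0 with wounding and UVB, 16.7 in cultured control and 19.1 in cultured distal. Its percentiles ran from 77.5 to 94.7, and 9775 of 32851 promoters (29.8%) were likewise in all lists. The 2 further RefSeq starts inside the gene had no region in any list. The intragenic region 4.7 kb from the start (chr2:24341440-24342115) was also in all lists, at percentiles from 14.7 (8 weeks after the first wound) to 55.2 (cultured control). Regions 1.3 kb upstream and 5.9 and 6.5 kb into the gene were weak, at or below percentile 10.6, and were found in the vehicle, PRT4165, UVB or wounding with UVB lists only.

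S100a8 and S100a9 lie next to each other and are transcribed towards each other, and their promoters differed. The S100a8 promoter (chr3:90668647-90669385, summit 103 bp before the start) was in homeostasis with a signal value of 13, at 1 and 8 weeks after the first wound with 11.2 and 10, after the second wound with 13.8, with vehicle at 16.3, with PRT4165 at 17.6, with UVB at 15.9, with wounding and UVB at 17.5 and in cultured control at 6.76. The cultured control value stood at percentile 26.6, below all uncultured lists (57 to 89.9), and cultured distal cells had no region there. This pattern of 9 lists was shared by 150 of 32851 promoters (0.457%).

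The S100a9 promoter (chr3:90695554-90696116, summit 74 bp before the start) was in 3 lists. Its signal value was 15.6 with PRT4165 (percentile 84.2), 13.5 with UVB (percentile 72.8) and 15.8 with wounding and UVB (percentile 76.7), and the authors' −log10 p was 125, 100 and 85.3. These were strong peaks, kept among the 34644 strongest regions of each of the 3 lists, and neither homeostasis, vehicle, the 3 wound lists nor the cultured lists had a region there. The vehicle list, with 70008 regions, was longer than the PRT4165 list (68411) and the list of wounding with UVB (66541), and shorter than the UVB list (73340). The pattern of these 3 lists and no other was that of 0.908% of the regions of the series, of 42 of 32851 promoters (0.128%), and of 2 of the 36 regions at the 6 genes, the other being that of Il1b. Y-linked regions were in 1 of the 3 lists, and of the 7 neutrophil and macrophage genes Csf3r, Itgam, Lyz2, Adgre1, Ptprc and Csf1r had no region in any of the 3. Spi1, the remaining gene of that list, had signal values of 15.2 with PRT4165, 22.1 with UVB and 21.7 with wounding and UVB, beside 16.2 with vehicle and 15.1 in homeostasis. The Langerhans cell genes Cd74, H2-Aa and Epcam had a region in each of the 3 lists. They also had one with vehicle, at 1 week after the first wound and in cultured control. What part list length, Y-linked regions or other cell types had in this pattern was not tested.

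**Figure D4:**
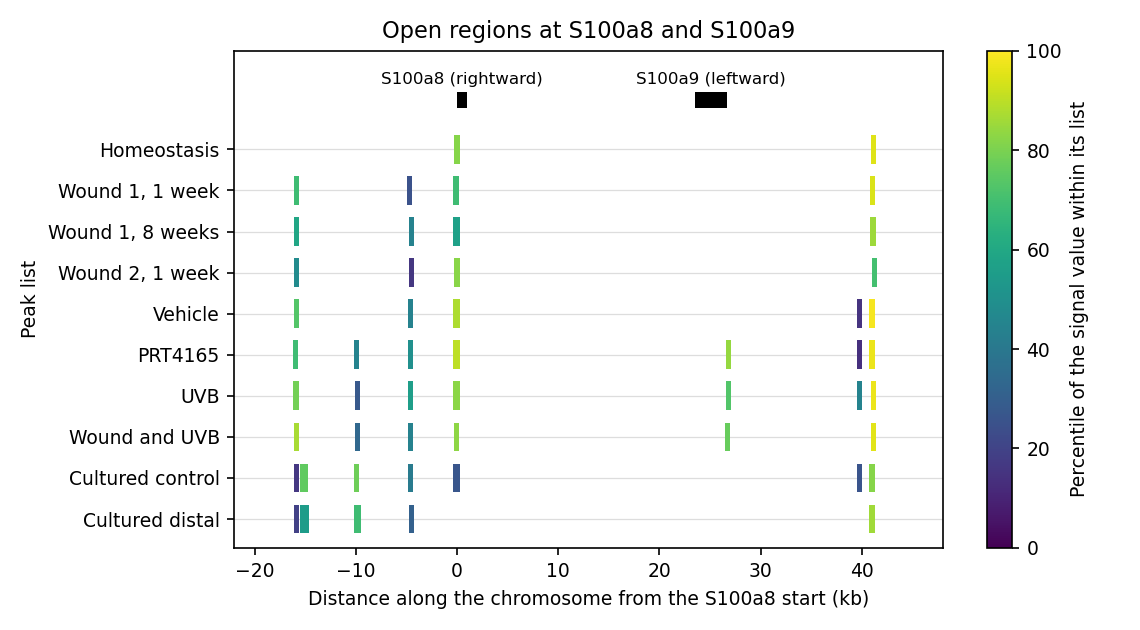
Accessible regions at S100a8 and S100a9 in the 10 peak lists (rows), by distance in kb along the chromosome from the S100a8 start. Black boxes are the gene spans, each coloured bar is a region, with short ones widened to stay visible, and colour gives the percentile of its signal value in its list. The S100a9 promoter, near 27 kb, has a bar in the PRT4165, UVB and wounding with UVB lists only, and homeostasis lacks the bars at 16 and 4.7 kb upstream of S100a8.

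Upstream of S100a8, 2 regions were in every list but homeostasis, as were 1.16% of the regions of the series. One lay 16 kb upstream (chr3:90652866-90653371) within the span of S100a7a, the mouse counterpart of psoriasin. Its signal value was 11.1 at 1 week and 10.3 at 8 weeks after the first wound, 9.22 after the second wound, 12.6 with vehicle, 12.2 with PRT4165, 14.9 with UVB, 18.8 with wounding and UVB, 5.82 in cultured control and 6.55 in cultured distal. Its percentile was highest with wounding and UVB, 86.8, and lowest in the cultured lists, 16.1 and 19.4. The other lay 4.7 kb upstream (chr3:90664170-90664712), at percentiles from 15.9 (after the second wound) to 55.6 (UVB). At full length the vehicle list held both regions too, so they did not separate the wound lists from every other uncultured list. With every list limited to the length of the shortest, the region 16 kb upstream was kept in 7 lists, every uncultured list but homeostasis. The region 4.7 kb upstream was kept in 5, those of 8 weeks after the first wound, PRT4165, UVB, cultured control and cultured distal. Neither region thus kept the pattern of every list but homeostasis.

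Cultured cells had their own arrangement at this locus. A region at the S100a7a start (chr3:90653538-90654394, 15.1 kb upstream of S100a8) was in both cultured lists only, with signal values of 13.1 in control (percentile 75.4) and 10.1 in distal (percentile 54.8). The region 9.9 kb upstream of S100a8 (chr3:90658882-90659560) had 13.7 in cultured control and 12.2 in cultured distal, above its values with PRT4165 (8.86), UVB (7.16) and wounding with UVB (8.82), and 0.268% of the regions of the series were in the same 5 lists. In the window of S100a9, the region 14.5 kb upstream of that gene (chr3:90709742-90710528) was in all lists, at percentiles from 70.2 (after the second wound) to 98.5 (vehicle). A weaker one 13 kb upstream (chr3:90708584-90708847) was in the vehicle, PRT4165, UVB and cultured control lists, at percentiles 13.9 to 44.6.

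The first comparison asked what a wound left at these genes in Lrig1-lineage cells. At 1 week after the first wound 9 of 22 regions (40.9%, Wilson 95% interval 23.3 to 61.3) were absent from homeostasis, 4 at Il33, 3 at Il1a and 2 at S100a8, where 33.1% of all regions of that list were. None of the 13 homeostasis regions was lost (interval 0 to 22.8%), where 6.04% of all were. With both lists limited to the length of the shorter, 3 were gained and 3 lost. In the full lists the strongest gained region was that 8.2 kb upstream of Il1a, at percentile 71.5, followed by that 16 kb upstream of S100a8, at 68.9. At 8 weeks 4 of 16 (25%, interval 10.2 to 49.5) were gained, against 17.9% of all, the strongest being the region 16 kb upstream of S100a8 (percentile 59.2). The only loss was the Il1a promoter, 1 of 13 (7.69%, interval 1.37 to 33.3), against 19.1% of all.

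After the second wound 5 of 16 regions (31.2%, interval 14.2 to 55.6) were gained over homeostasis, against 27.3% of all, the strongest being the upstream S100a8 region at percentile 48. The losses were the Il1a promoter and the Il33 region 26.5 kb from the start, 2 of 13 (15.4%, interval 4.33 to 42.2), against 12.9% of all. With both lists of equal length, 3 were gained and 4 lost. All 3 wound comparisons share the homeostasis list, and every background share lay within the members' interval. Of the regions gained at the members, 7 of 9, 4 of 4 and 4 of 5 were also in the vehicle list, as were 86.1, 93.8 and 86.5% of all gained regions.

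Set directly against 1 week after the first wound, the list after the second wound gained 1 of 16 regions (6.25%, interval 1.11 to 28.3, against 9.85% of all), an Il33 region 15.2 kb from the start. It lacked 7 of 22 (31.8%, interval 16.4 to 52.7, against 23.1% of all). Of these 4 were at Il33 and 3 at Il1a, among them the Il1a promoter and both of its regions 8.2 and 14.4 kb upstream. The second list also had fewer regions in all, 42200 against 49078.

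With PRT4165, 6 of 28 regions (21.4%, interval 10.2 to 39.5) were absent from vehicle, against 11.4% of all. The strongest was the S100a9 promoter, at percentile 84.2, and the others were the Il1b region, the Il33 region 7.5 kb upstream, the Il1a regions 24.2 kb downstream and 14.4 kb upstream, and the S100a8 region 9.9 kb upstream. Lost were 2 of 24 (8.33%, interval 2.32 to 25.8), both at Il33 and at percentiles 9.82 and 14.7, against 13.9% of all. The share gained by the members was above that of all regions, which still lay within the interval. That interval treats regions as independent, though 10 of the 28 lay at Il33, and it is not a test.

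With UVB, for which the labels name no control and which is set here against vehicle, 7 of 29 regions (24.1%, interval 12.2 to 42.1) were gained, against 16.2% of all. The S100a9 promoter was again the strongest, at percentile 72.8, followed by the Il1a region 14.4 kb upstream at 66.1 (39.6 with PRT4165). The Il1a region 24.2 kb downstream stood at 34.3 (38.6 with PRT4165), the Il1b region at 32.3 (26.9), the S100a8 region 9.9 kb upstream at 27.5 (44.6), the Il33 region 7.5 kb upstream at 16.1 (21.6), and an Il33 region 17.5 kb from the start, which the PRT4165 list lacked, at 21.1. Both comparisons share the vehicle list, so their gains are not independent. Lost were 2 of 24 (8.33%), 1 at Il33 and 1 at Il1rn, against 11.6% of all. Wounding with UVB gained 4 of 29 over UVB alone (13.8%, interval 5.5 to 30.6, against 10% of all), the strongest being a region 48.5 kb downstream of the Il33 start, past the gene's end, at percentile 46.2. It lacked 5 of 29 (17.2%, interval 7.6 to 34.5, against 19.3% of all), the strongest being the S100a9 region 13 kb upstream.

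Between the cultured lists, cells from the distal memory region gained none of 19 regions over control (interval 0 to 16.8%), where 7.6% of all were gained. They lacked 2 of 21 (9.52%, interval 2.65 to 28.9, against 22.2% of all), the S100a8 promoter and the S100a9 region 13 kb upstream, at percentiles 26.6 and 26 of the control list. At Il33, Il1a and Il1rn both cultured lists thus held the same regions.

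**Figure D5:**
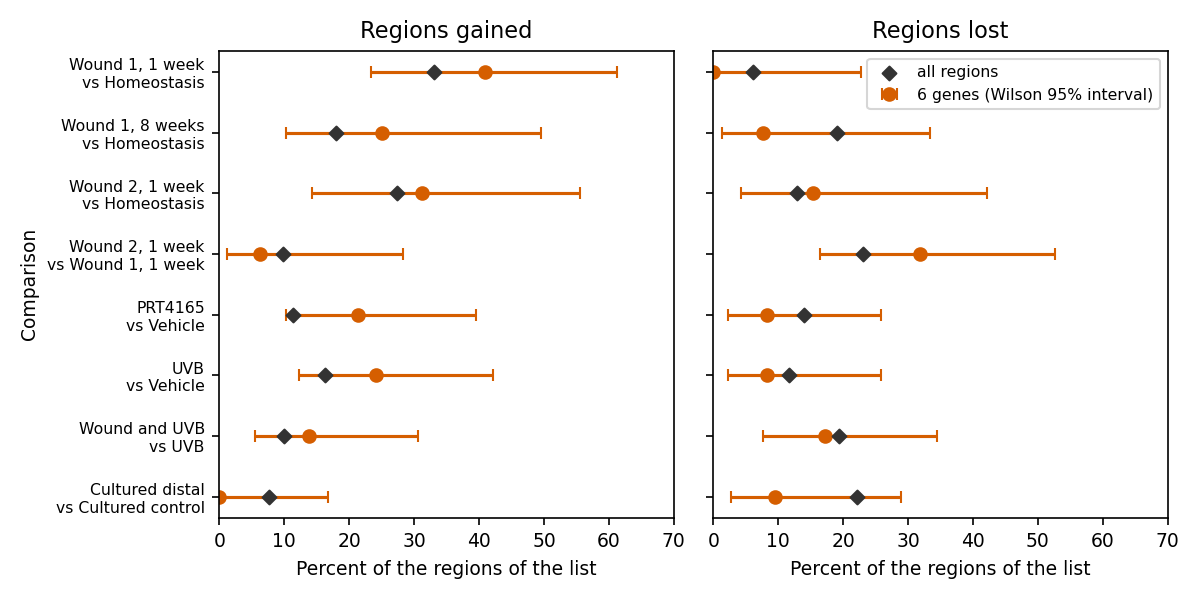
Percent of the regions at the 6 genes (orange, with Wilson 95% intervals that cover counting error only) and of all regions (dark diamonds) that were gained (left, of the first-named list) or lost (right, of the other list) in 8 comparisons. Each diamond lies within the interval of the 6 genes.

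A list of 32 further genes covered IL-1 family signalling (receptors, adaptors, kinases, inflammasome and other cytokines) and also held Tlr4 and Ager. Regions within 20 kb of these genes numbered 64 in homeostasis, 85 and 68 at 1 and 8 weeks after the first wound, 68 after the second wound, 113 with vehicle, 117 with PRT4165, 133 with UVB, 131 with wounding and UVB, and 90 and 78 in cultured control and distal cells. At 1 week after the first wound 26 of 85 (30.6%) were gained and 4 of 64 (6.25%) lost, near the 33.1 and 6.04% of all regions. Gains outnumbered losses at 20 genes and losses outnumbered gains at 1. For such counts no share over all genes was computed, and this list was longer than that of homeostasis (49078 against 35195 regions). The inhibitory receptor gene Sigirr gained 3 and lost 1, the IL-36 receptor gene Il1rl2 gained 2, and Casp1, for the protease that matures IL-1β, lost 1. With UVB against vehicle 24 of 133 (18%) were gained and 4 of 113 (3.54%) lost, where 16.2 and 11.6% of all regions were. Il18, for another cytokine that caspase-1 matures, gained 5 and Il1rl2 gained 4. With PRT4165 13 of 117 (11.1%) were gained and 11 of 113 (9.73%) lost, where 11.4 and 13.9% of all were. After the second wound 18 of 68 (26.5%) were gained over homeostasis and 13 of 64 (20.3%) lost, where 27.3 and 12.9% of all were. Gains outnumbered losses at 10 genes and losses outnumbered gains at 5. The kinase gene Irak2 and Il1rap, for the receptor accessory protein, each gained 2, while Irak3, for an inhibitory kinase, lost 3 and the decoy receptor gene Il1r2 lost 2.

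At the receptors, the promoter of Il1rl1, which encodes the IL-33 receptor ST2, was in no list, while Il1rap, for the shared accessory protein, and 1 of the 2 starts of Il1r1, for the signalling receptor of IL-1α and IL-1β, were in all 10. The promoter of the inflammasome adaptor Pycard followed the Il33 promoters, present in the 8 uncultured lists and in neither cultured list, and that of the sensor Nlrp3 was in none. Casp1 had an accessible promoter after the second wound, with vehicle, PRT4165, UVB and wounding with UVB, as did 0.0822% of promoters. Of the 27 list members with a promoter entry, 16 were accessible in homeostasis and 21 in each of the vehicle, PRT4165, UVB and wounding with UVB lists, but 14 in each cultured list. Over all 27025 genes with an entry the shares were 37.1% in homeostasis, 43 to 44.9% in those 4 lists, and 41.8 and 40.3% in cultured control and distal.

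The 15 other genes of the S100 list had 39 regions in homeostasis, 46, 37 and 41 in the wound lists in the order above, 61 with vehicle, 59 with PRT4165, 62 in each list with UVB, and 58 and 53 in cultured control and distal cells. Over homeostasis they gained 15.2, 8.11 and 14.6% of their regions in the wound lists, below the 33.1, 17.9 and 27.3% of all regions. With UVB against vehicle 8 of 62 (12.9%) were gained and 8 of 61 (13.1%) lost, where 16.2 and 11.6% of all were. PRT4165 against vehicle gave 6 of 59 (10.2%) gained and 9 of 61 (14.8%) lost, where 11.4 and 13.9% of all were. S100a7a had the most gains in each of the 3 wound comparisons, 3 regions each time. Its window overlaps that of S100a8, so 1 to 5 regions per list were counted for both. S100a7a is also the family member whose promoter was in the cultured lists only. The promoters of S100a6, S100a11 and S100a16 were in all 10 lists, those of S100a4, S100a5 and S100b in none, and those of the neighbours S100a1 and S100a13 in every list but homeostasis and cultured distal.

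By the number of regions within 20 kb per 10000 regions of a list, the genes most like each member over the 10 lists were named, as a description. The sources used here do not say whether lists share mice or cultures, and they give no depth. For S100a9 these were Nanp (Pearson r = 1.00), Eif1ax (0.88) and Cfap97d2 (0.86), and for S100a8 Syngr2 (0.94), Tspan11 and Rita1 (both 0.93). Il33 was most like Pde6a (0.96), Ptgdr (0.95) and Dazap2 (0.94), Il1a like Hmgxb4 (0.93), Ucn2 (0.92) and Kpna7 (0.90), and Il1rn like Bud31 and Tmem14c (both 0.96) and Srp72 (0.95). For Il1b, with 3 regions over all lists, Asz1, BC037156 and Ces2a each had r = 1.00 and 3 regions as well. Genes with equal r were taken in alphabetical order, and how many of the 17716 genes compared with Il1b tied was not counted. The other members were compared with 6056 (Il33) to 16201 (S100a9) genes, over 10 lists only.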

How the data were processed

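From 20 ATAC-seq libraries the authors made 10 peak lists, each pooling the 2 libraries of a group, in mm10 per the submitters' processing notes. The sources used here name no aligner, peak caller, filter, depth or Tn5 read shift. The list names point to peaks kept after a reproducibility threshold between replicates. Per peak, the authors deposited a signal value, the enrichment used here to rank regions within a list, a −log10 p and a summit offset. Replicates were pooled by the authors, so no test was possible. Wilson 95% intervals cover counting error only and treat regions of the same gene as independent.

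Overlapping peaks of a list were merged into regions, and the strongest peak gave the signal value and summit. Gained regions of a list, and lost ones of its control, overlapped no region of the opposite list by 1 bp or more. A percentile is the rank of a region's signal value within its list. Gene spans and promoters came from RefSeq tables for GRCm38.p6, the assembly of mm10. Exons and introns were not separated.

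The 6 genes and the other gene lists were chosen with earlier results of these data known. Named were the 6 genes, in each comparison 2 genes of each other list at either extreme of gained minus lost (the text gives some of these), the 3 genes most like each member that lie more than 1 Mb from all members, and the strongest gained and lost regions. Receptor, inflammasome and S100 promoters were named after their values were seen. Alternatives were windows of 10 and 50 kb, single peaks, lists of equal length, the strongest 50% of regions and an overlap of 50%. Python 3.11.15, numpy 2.4.6, pandas 2.3.3, scipy 1.17.1 and matplotlib 3.10.9 were used. All 16 gained and lost counts equalled those of bedtools 2.31.1, and on simulated data 3000 removed and 5000 added regions were all recovered.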

Additional observations from a re-analysis of the deposited data

How the results depend on the processing

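No paired analysis was possible because each list pools both libraries of its group, so the shared replicate numbers could not be used and no replicate could be left out. An overlap of 50% of both regions moved no gained or lost count by over 1.5 times (16 of 16). Counting single peaks raised 2 of 10 list totals by more than that, to 34 at 1 week after the first wound and 29 in cultured distal cells. Windows of 50 kb gave 22 regions in homeostasis, 36, 25 and 25 in the wound lists, 42 with vehicle, 49 with PRT4165, 53 with UVB, 52 with wounding and UVB, and 43 and 42 in cultured control and distal cells. Limited to 34644 regions, the lists of 1 week after the first wound, vehicle, PRT4165, UVB and wounding with UVB held 13, 12, 14, 14 and 13. Those of homeostasis, 8 weeks after the first wound and 1 week after the second held 13, 16 and 12. Cultured control and distal held 17 and 16, so the lists with UVB no longer held the most. The strongest 50% of each list held 8 in homeostasis, 10, 9 and 8 in the wound lists, 13, 13, 15 and 13 in the vehicle, PRT4165, UVB and wounding with UVB lists, and 12 in cultured distal cells.

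With pairs of lists of equal length, 1 week after the first wound gained 3 regions over homeostasis and lost 3 (9 and 0 before), the list after the second wound gained 3 and lost 4 (5 and 2 before) and gained 3 over 1 week after the first wound (1 before), and cultured distal cells gained 1 over control (0 before). Equal length thus moved the gain at 1 week to the same number as the loss; the cause was not tested beyond the construction, which leaves fewer regions. Counting only the strongest 50% against the whole other list, gains over homeostasis were 2, 1 and 0 in the 3 wound lists with a loss of 1 after the second wound, the second wound gained 0 and lost 2 against the first, PRT4165 gained 1 and lost 0, UVB gained 2 and lost 0, wounding with UVB gained 0 and lost 0, and cultured distal cells lost 0. The gain kept with PRT4165 and 1 of the gains kept with UVB was the S100a9 promoter, and the other was the Il1a region 14.4 kb upstream.

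Within 10 kb, the second wound gained 3 over homeostasis, PRT4165 gained 2, UVB gained 4, wounding with UVB lost 3 and cultured distal cells lost 1. Within 50 kb, 1 week after the first wound gained 15 and lost 1, 8 weeks lost 2, the second wound lost 4 and, against the first, 12, PRT4165 gained 11 and lost 4, UVB gained 14, wounding with UVB lost 8, and cultured distal cells gained 1 and lost 4. Unknown depth limits every absence, since a region missing from a short list may only have missed the authors' threshold.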

Other observations

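The window upstream of Il1rn borders the cluster of IL-36 family cytokine genes, whose promoters were in fewer lists than that of Il1rn, which was in all 10. The promoter of Il1f8, for IL-36β, was in every list but homeostasis and cultured distal cells, a pattern of 29 of 32851 promoters (0.0883%). That of Il1f9, for IL-36γ, was in 6 lists (1 and 8 weeks after the first wound, vehicle, PRT4165, UVB, and wounding with UVB), as were 23 promoters (0.07%). Both promoters of Il1f5, for the IL-36 receptor antagonist, were in the vehicle, PRT4165, UVB and wounding with UVB lists only, as were 135 promoters (0.411%). Il1f10, for IL-38, was in every uncultured list but that after the second wound, as were 0.07% of promoters. Il1f6, for IL-36α, had no region within 20 kb in any list.

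Il18 had a promoter region in every list but homeostasis and 1 week after the second wound, a pattern of 54 promoters (0.164%). Its number of regions within 20 kb was 0 in homeostasis, 1 and 2 at 1 and 8 weeks after the first wound, 1 after the second wound, 2 with vehicle, 4 with PRT4165, 7 with UVB, 6 with wounding and UVB, 7 in cultured control and 5 in cultured distal cells. Gsdmd, for the pore-forming protein through which mature IL-1β and IL-18 leave cells, had 0 or 1 region in the homeostasis, wound and cultured lists and 6, 5, 8 and 6 with vehicle, PRT4165, UVB, and wounding with UVB. The genes of both paragraphs were picked with their values known, and no difference was tested.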
